A study of Mus musculus with 6 samples.

Results

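Ribosome-bound mRNA of 10 genes of bone morphogenetic protein (BMP) signalling was followed in mouse choroid plexus (ChP). Activity of the pathway was not measured. The 10 genes were chosen by symbol from the 24354 gene names of the FPKM table. They were the secreted antagonist Sostdc1, the ligands Bmp4, Bmp6 and Bmp7, the receptors Bmpr1a, Bmpr1b and Bmpr2, and the target genes Id1, Id2 and Id3. All 10 are in the table, and 9 passed the filter of a mean FPKM above 1 over the 6 samples. Bmpr1b did not. Translating ribosome affinity purification (TRAP) was applied to 3 samples of adult ChP, labelled as 60 days of age, and 3 samples of embryonic ChP at E16.5 (embryonic day 16.5). All 6 samples carried the same transgenes, FoxJ1:cre and a bacTRAP allele that fuses EGFP to the ribosomal protein L10a, so that no group lacks the tag. The Foxj1 promoter drives Cre in ciliated epithelia, which in the brain include ependyma as well as ChP. The study's methods describe pools of animals or litters, and the series text speaks of 3 mice for each age, so the p-values measure the spread between these samples only.

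BMPs are secreted dimers of the TGF-beta superfamily. They bring together type I receptors such as BMPR1A and BMPR1B and type II receptors such as BMPR2, and the type I kinase then phosphorylates SMAD1, SMAD5 and SMAD9, which enter the nucleus with SMAD4 and switch on targets such as the Id genes. Secreted antagonists bind the ligands before they reach a receptor. In the embryo, BMPs of the dorsal midline are known to be needed for the neuroepithelium to become ChP epithelium.

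The libraries differed in ways that touch every value given here. FPKM divide the fragments of a gene by transcript length and by the size of the library, so levels can be set beside each other between genes. The number of reads is not given with the table. The size of 1 read, read from the spacing of low values in genes with 1 transcript, put the E16.5 libraries at 4.03 to 5.08 times the depth of adult replicate 3, the shallowest, and adult replicates 1 and 2 at 1.26 and 2.86 times. In adult replicates 1, 2 and 3, 21.98%, 10.3% and 36.4% of the 11601 genes tested were listed at 0, against 3.68% to 4.02% in the E16.5 samples. A listed 0 may be a failed estimate. Ttr, the transthyretin gene that marks ChP epithelium, was listed at 0 in all 3 E16.5 samples. The 10 markers of that epithelium summed to 39297 to 54166 FPKM in the adult and 2541 to 2856 FPKM in the E16.5 samples, 6 passing as higher in adult and 1, Otx2, as higher at E16.5. Ttr and Enpp2 carried the adult sums. The other 8, all above 0 in every sample, summed to 3341 to 4133 FPKM in the adult and 2267 to 2553 FPKM in the E16.5 samples. Folr1, Otx2 and Aqp1 among them were lower in every adult sample than in any E16.5 sample, as were 31.0% of all genes tested. Over all genes tested the median log2 change, adult minus E16.5 throughout, was -0.86 with FPKM as deposited. It was -0.56 after median-ratio scaling, -1.46 after rescaling every library to the same sum of FPKM, -0.99 when that sum left out Mir6236, which held 32.7% to 51.7% of the adult sums and 13.3% to 15.002% of the E16.5 sums, and 0.01 after quantile normalization. Changes of the genes tested among the 10 are therefore also given relative to the median of all genes. That median was -0.38 among genes above 0 in every sample, and -1.48 with 0.01 in place of 1 added to FPKM before the log2. Ranges given below over the 4 other scalings leave these settings out.

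At an adjusted p of 0.05, 0 of the 9 genes passed in limma, the test fitted across all genes on log2(FPKM + 1), where 10.9% of all genes passed, 2.12% as higher in adult and 8.83% as higher at E16.5. Without adjustment, Sostdc1 and Bmpr2 had a p under 0.05 with a higher adult level (5.34% of all genes), and Bmp4 and Id1 with a higher E16.5 level (25.9% of all genes). The ages did not overlap in 3 genes. All adult values of Sostdc1 and Bmpr2 exceeded all E16.5 values, as in 7.39% of all genes, and those of Bmp4 were under them, as in 31.0% of all genes. These 3 genes reached 0.1 in an exact permutation test, the lowest p that 3 samples per age allow. The median log2 change of the 9 was -0.38.

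**Figure D1:**
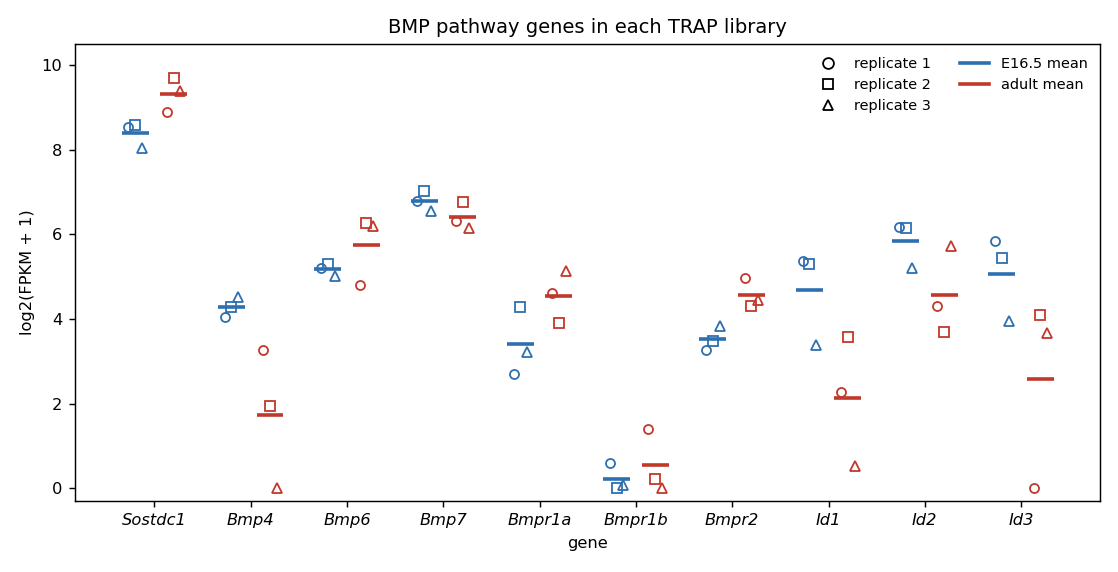
Level of each of the 10 genes as log2(FPKM + 1) on a linear axis, with E16.5 in blue and adult in red, a symbol per replicate and a bar at the mean of the 3 log2 values. The adult samples lie above all E16.5 samples in Sostdc1 and Bmpr2 and below them in Bmp4, and Bmpr1b lies near 0 at both ages.

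Sostdc1 (chromosome 12, 36314139 to 36318452, plus strand, mm10) encodes a secreted protein related to sclerostin that binds BMPs and also the WNT coreceptors LRP4, LRP5 and LRP6. It had 475, 832 and 668 FPKM (adult replicates 1 to 3 in order) and 371, 385 and 262 FPKM (E16.5 replicates 1 to 3 in order, as throughout). The lowest adult sample lay above the highest E16.5 sample, and the adult samples were the more scattered. The means were 658 ± 179 FPKM and 340 ± 67.2 FPKM (adult and E16.5, SD, n = 3 each), a ratio of 1.94. The log2 change was 0.94 (standard error 0.29, 95% interval 0.26 to 1.62), with a limma p of 0.0134 before and 0.0783 after adjustment. Relative to the median of all genes it was 1.79, and under the 4 other scalings 1.43 to 1.84. Relative to genes above 0 in every sample it was 1.32, and with 0.01 added in place of 1 it was 2.41. The change itself depended on the scaling. It was 1.28 after median-ratio scaling (limma adjusted p = 0.0261) and 1.44 after quantile normalization (limma adjusted p = 0.00923), both past the threshold, and 0.11 after rescaling to the same sum (limma adjusted p = 0.823). Ordered by FPKM within a library, Sostdc1 stood at position 38, 37 and 35 of all gene names in the adult replicates and at position 133, 127 and 175 in the E16.5 replicates.

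Sostdc1 was the highest of the 10 genes at both ages, and its range lay wholly above that of Bmp7, the next. In adult, Bmp7 was followed by Bmp6, Id2, Bmpr1a and Bmpr2 with overlapping ranges between each pair of neighbours, and then by Id3, Id1, Bmp4 and Bmpr1b, again with overlapping neighbours. At E16.5 Bmp7 stood apart from Id2, and the order then ran through Id3, Bmp6, Id1, Bmp4, Bmpr1a and Bmpr2 with overlapping neighbours, with Bmpr1b apart at the bottom. The mean levels of Bmpr1a and Bmpr2 thus stood above those of Id1, Id3 and Bmp4 in adult and below them at E16.5.

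Over the 6 samples, the 5 genes tested whose log2(FPKM + 1) followed that of Sostdc1 most closely were Fam73b, Bcar3, Calr, Mccc1 and Clptm1, with Pearson's r from 0.991 to 0.978. The samples share their age groups and libraries, so r is a description. Calr, the endoplasmic reticulum chaperone calreticulin, had 888, 1315 and 1074 FPKM among adults and 703, 647 and 584 FPKM at E16.5. Of the 5, only Clptm1 passed the test, with a log2 change of 1.81 (limma adjusted p = 0.0431).

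Bmp4 (chromosome 14, 46383520 to 46390669, minus strand) encodes a ligand of the dorsal midline and of mesenchyme. It had 8.55, 2.83 and 0 FPKM across the adult replicates and 15.6, 18.4 and 21.95 FPKM across the E16.5 replicates. All adult samples lay below all E16.5 samples, and adult replicate 3 was listed at 0. The log2 change was -2.55 (standard error 0.87, 95% interval -4.57 to -0.53, limma adjusted p = 0.0966), or -1.70 relative to all genes and -1.84 to -1.70 under the 4 other scalings. After rescaling to the same sum it passed the threshold (-3.18, limma adjusted p = 0.0248). Without adult replicate 3, the sample at 0, it was -1.69, or -0.997 relative to all genes (limma adjusted p = 0.0779). By the read steps these values stood for about 62.0, 46.5 and 0 reads in adult and 360 to 595 reads at E16.5. At the E16.5 mean, the depth of adult replicate 3 would give about 107 reads. The 9 markers of mesenchyme and fibroblasts summed to 13.3 to 22.04 FPKM among adults and 63.4 to 70.4 FPKM at E16.5, with 7 tested and 1, Pdgfra, passing as higher at E16.5. Those tested had a median of -1.17 on the log2 scale (-0.32 against the median of all genes), and Col1a2 and Pdgfrb overlapped between the ages. Lum, Dpep1 and Twist1 were listed at 0 in every adult sample and in 2 of 3 E16.5 samples each. Their part in the Bmp4 values was not tested, and fewer cells of a type cannot be told apart from less RNA per cell in such samples. Nor can either be told apart from a different amount of RNA of untagged cells carried through the purification. The 250 bases upstream of the RefSeq start of Bmp4 (GRCm38.p6, chr14:46390670-46390919, minus strand, in no exon of GENCODE M21) are shown because Bmp4 is the ligand whose ages do not overlap. They hold neither GGCGCC, a palindrome bound by BMP-activated SMADs that 9.59% of all 32851 RefSeq windows of this length hold, nor the palindrome GTCTAGAC (0.167% of windows).
Bmp4: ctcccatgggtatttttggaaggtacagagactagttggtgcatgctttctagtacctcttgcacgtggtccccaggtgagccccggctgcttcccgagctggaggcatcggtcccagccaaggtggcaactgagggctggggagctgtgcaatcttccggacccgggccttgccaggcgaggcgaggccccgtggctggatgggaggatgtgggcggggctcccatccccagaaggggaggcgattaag

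Bmp6 (chromosome 13, 38345107 to 38500302, plus strand) and Bmp7 (chromosome 2, 172868012 to 172940321, minus strand) encode closely related ligands of epithelia. Bmp6 had 26.9, 76.4 and 72.5 FPKM across the adult replicates and 35.6, 38.1 and 31.6 FPKM across the E16.5 replicates. Adult replicates 2 and 3 lay above all E16.5 samples and adult replicate 1 below all of them. The means were 58.6 ± 27.5 and 35.1 ± 3.31 FPKM (SD, n = 3 each), and the log2 change of 0.59 (standard error 0.46, 95% interval -0.47 to 1.65, limma adjusted p = 0.403) did not pass. Without adult replicate 1 it was 1.07 (limma adjusted p = 0.0902), without adult replicate 2 0.33 (limma adjusted p = 0.647) and without adult replicate 3 0.37 (limma adjusted p = 0.593). Relative to all genes it was 1.44, and 0.98 to 1.48 under the 4 other scalings. Bmp7 had 79.3, 107 and 70.3 FPKM among adults and 110, 130 and 92.6 FPKM at E16.5, with adult replicate 2 inside the E16.5 range. Its means were 85.5 ± 19.2 and 111 ± 18.7 FPKM (SD, n = 3 each). The difference of -0.38 on the log2 scale (standard error 0.29, 95% interval -1.06 to 0.31, limma adjusted p = 0.405) did not pass. Relative to all genes it was 0.48, above the median, and 0.05 to 0.52 under the 4 other scalings. Relative to genes above 0 in every sample it was 0.0025, and with 0.01 added in place of 1 it was 1.09. The change turned to 0.059 after quantile normalization and passed as lower in adult after rescaling to the same sum (-1.20, limma adjusted p = 0.0458).

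Shares within a sample do not depend on a factor that multiplies all values of a library, and were computed from FPKM as deposited. Of the summed FPKM of Bmp2, Bmp4, Bmp5, Bmp6 and Bmp7, Bmp7 held 65.7%, 57.1% and 49.0% in the adult replicates and 67.1%, 66.4% and 61.0% in the E16.5 replicates, the largest share in every sample except adult replicate 3. Bmp6 held 22.3%, 40.7% and 50.5% in adult and 21.8%, 19.5% and 20.8% at E16.5. All adult shares of Bmp6 lay above all E16.5 shares, though adult replicate 1 only just. Bmp4 held 7.09%, 1.51% and 0% in adult and 9.53%, 9.42% and 14.5% at E16.5. The mean share of Bmp6 was 17.2 percentage points higher in adult, and 10.8 points without adult replicate 3. That of Bmp7 differed by -7.54 points, and by -3.42 points without adult replicate 3. Bmp5, with 0 to 9.21 FPKM, held at most 4.82%, and Bmp2, with 0 to 0.582 FPKM, at most 0.406%.

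The sum of the 5 ligands was 121, 188 and 143 FPKM among adults and 163, 196 and 152 FPKM at E16.5, with overlapping ranges. Set against it, Sostdc1 stood at 3.94, 4.43 and 4.66 times the ligand sum in adult replicates 1, 2 and 3 and at 2.27, 1.97 and 1.73 times in E16.5 replicates 1, 2 and 3 (4.34 ± 0.370 against 1.99 ± 0.271, SD, n = 3 each). All adult ratios lay above all E16.5 ratios, and the difference of 2.35 was 2.196 to 2.56 with any 1 sample left out. This ratio was chosen after the values had been seen, and no test is given for it.

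**Figure D2:**
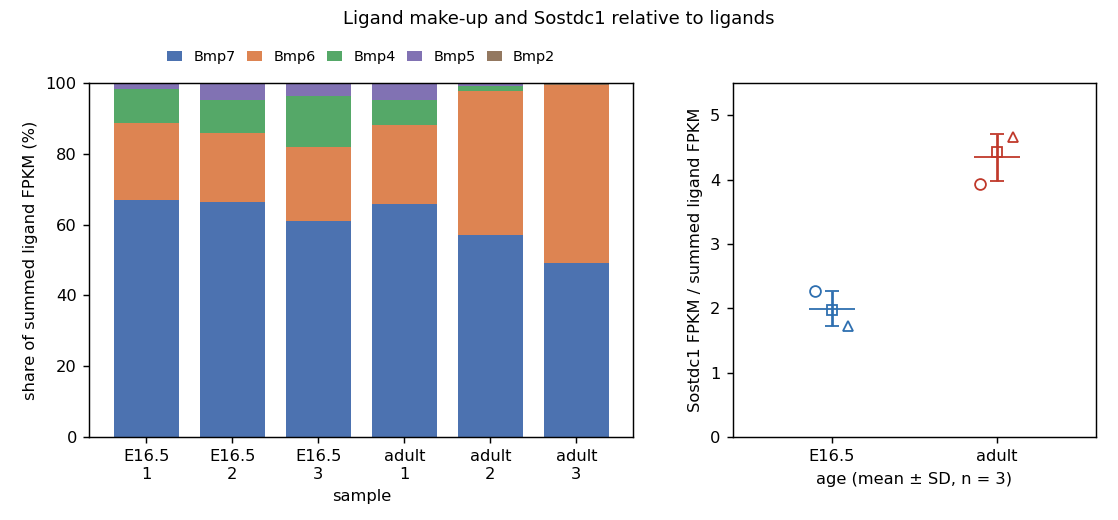
Left, the percent of the summed FPKM of 5 BMP ligands held by each ligand, as stacked bars for each sample; right, the ratio of Sostdc1 FPKM to that sum, with a symbol per replicate (circle 1, square 2, triangle 3) and the mean ± SD of 3 samples. Bmp6 takes 40.7% and 50.5% in adult replicates 2 and 3 against 19.5% to 21.8% at E16.5, and the ratio lies between 3.94 and 4.66 in adult and between 1.73 and 2.27 at E16.5.

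Bmpr1a (chromosome 14, 34410734 to 34503341, minus strand) encodes a broadly used type I receptor. It had 23.4, 13.9 and 33.9 FPKM across the adult replicates and 5.51, 18.3 and 8.29 FPKM across the E16.5 replicates. E16.5 replicate 2 lay above adult replicate 2, and the ranges overlapped. The means were 23.8 ± 9.97 and 10.7 ± 6.75 FPKM (SD, n = 3 each), with a log2 change of 1.15 (standard error 0.59, 95% interval -0.22 to 2.51, limma adjusted p = 0.220). Bmpr2 (chromosome 1, 59763400 to 59879014, plus strand), a type II receptor of BMPs, had 30.4, 18.6 and 20.8 FPKM among adults and 8.66, 10.2 and 13.2 FPKM at E16.5, with no overlap. The means were 23.3 ± 6.27 and 10.7 ± 2.30 FPKM (SD, n = 3 each), a ratio of 2.18. The log2 change was 1.05 (standard error 0.44, 95% interval 0.02 to 2.07, limma adjusted p = 0.154). Relative to all genes the changes were 2.004 for Bmpr1a and 1.90 for Bmpr2, and 1.73 to 2.02 under the 4 other scalings, and neither passed under any of the alternatives tried.

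Bmpr1b (chromosome 3, 141837136 to 142169425, minus strand), also a type I receptor of BMPs, had 1.65, 0.158 and 0 FPKM among adults and 0.515, 0 and 0.0547 FPKM at E16.5. By the read steps these were about 33.0, 7.19 and 0 reads in adult and 32.9, 0 and 4.10 reads at E16.5. Each age had 1 sample with about 33 reads and 1 with none, the ranges overlapped, and no test across genes was made for Bmpr1b. Of the summed FPKM of Bmpr1a, Bmpr1b and Acvr1, another type I receptor of the family, Bmpr1a held 70.1%, 78.4% and 98.9% in adult and 64.8%, 91.0% and 58.1% at E16.5, the largest share in all 6 samples. Acvr1 itself had 0.381 to 8.33 FPKM among adults and 1.82 to 5.93 FPKM at E16.5. The part of the window upstream of the RefSeq start of Bmpr1a that lies in no GENCODE exon (GRCm38.p6, chr14:34502688-34502796, minus strand, 109 bases) is shown with GGCGCC in capitals. It lies inside the span of the gene, so it can be intron of transcripts that start further upstream. Only Bmp4, Bmpr1b, Bmpr1a and Id2 had such a part to search, and the motif was found in 2 of these genes, Bmpr1a and Id2. The windows of Bmpr2, Id3 and Bmp6 began in an exon, and Sostdc1, Bmp7 and Id1 had no window. The first base of the motif lies 198 bases before the start. The motif is in 3.41% of all windows of this length, whatever their base content, and this part is 84.4% G or C.
Bmpr1a: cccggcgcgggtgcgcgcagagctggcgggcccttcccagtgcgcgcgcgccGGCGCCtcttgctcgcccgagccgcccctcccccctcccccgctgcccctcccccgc

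Id1 (chromosome 2, 152736251 to 152737410, plus strand), Id2 (chromosome 12, 25093799 to 25097140, minus strand) and Id3 (chromosome 4, 136143497 to 136145755, plus strand) encode helix-loop-helix proteins without a DNA-binding region, which hold E proteins away from DNA and are textbook targets of BMP-activated SMADs. All 3 had their highest values at E16.5, and none passed the test. Id1 had 3.84, 10.8 and 0.447 FPKM across the adult replicates and 40.7, 38.2 and 9.46 FPKM across the E16.5 replicates. Adult replicate 2 lay above E16.5 replicate 3. By the read steps the adult values stood for about 14.3, 91.4 and 1.32 reads, and the log2 change was -2.56 (standard error 0.92, 95% interval -4.71 to -0.42, limma adjusted p = 0.110).

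Id2 had 18.9, 11.8 and 51.9 FPKM among adults and 70.7, 70.6 and 35.8 FPKM at E16.5. Adult replicate 3 lay above E16.5 replicate 3 and the other adult samples below all E16.5 samples. The log2 change was -1.27 (standard error 0.58, 95% interval -2.63 to 0.09, limma adjusted p = 0.182). Without adult replicate 3 it was -1.85 and passed (limma adjusted p = 0.0331), and without adult replicate 2 it was -0.82 (limma adjusted p = 0.334). Relative to all genes it was -0.41, and 0.25, above the median, without adult replicate 2. Id3 was listed at 0 in adult replicate 1 and had 16.1 and 11.8 FPKM in adult replicates 2 and 3, against 56.0, 42.5 and 14.4 FPKM at E16.5. Its log2 change was -2.48 (standard error 1.12, 95% interval -5.08 to 0.11, limma adjusted p = 0.174), and at the E16.5 mean the depth of adult replicate 1 would give about 158 reads. Relative to all genes the changes of Id1 and Id3 were -1.71 and -1.63, and -1.89 to -1.48 under the 4 other scalings. Without adult replicate 3 Id1 was at -1.77, or -1.08 relative to all genes (limma adjusted p = 0.143). Without adult replicate 1, the sample at 0, Id3 was at -1.19, or -0.33 relative to all genes (limma adjusted p = 0.257). After rescaling to the same sum, Id1 (-3.22, limma adjusted p = 0.0304) and Id2 (-2.08, limma adjusted p = 0.0269) passed as lower in adult.

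E16.5 replicate 3 had the lowest value of its age in Id1, Id2 and Id3. It was also the lowest of its age in Sostdc1, Bmp6 and Bmp7 and the highest in Bmp4 and Bmpr2. All FPKM of E16.5 replicate 3 summed to 459296, against 583606 and 601541 in E16.5 replicates 1 and 2. The part of this smaller sum in its low values was not tested. With Id4, another gene of the family at 15.1, 29.0 and 0.224 FPKM among adults and 27.4, 11.6 and 6.89 FPKM at E16.5, the Id genes summed to 37.8, 67.7 and 64.4 FPKM among adults and 195, 163 and 66.6 FPKM at E16.5, so that E16.5 replicate 3 lay within the adult range. Id2 held 49.9%, 17.4% and 80.7% of this sum in adult and 36.3%, 43.3% and 53.8% at E16.5. Markers of neurons and neural progenitors summed to 3.38 to 9.88 FPKM among adults and 30.0 to 97.1 FPKM at E16.5. Of 5 genes tested 0 passed, and 2 were below an unadjusted limma p of 0.05. Dcx, Neurod1, Nes and Rbfox3 were listed at 0 in every adult sample, Neurod1 and Rbfox3 also in 2 of 3 E16.5 samples. Sox2 alone had 7.81, 9.81 and 0.145 FPKM among adults and 26.3, 25.3 and 26.4 FPKM at E16.5. Sox2 thus made up most of the sum in adult replicates 1 and 2 and in E16.5 replicates 2 and 3. Tubb3 and Dcx were high in E16.5 replicate 1 only. Across E16.5 replicates 1 to 3, Tubb3 had 36.2, 0.623 and 0.134 FPKM, and Dcx 8.32, 0.598 and 0.00772 FPKM. Markers of ependyma and motile cilia summed to 75.7 to 147 FPKM among adults and 916 to 993 FPKM at E16.5, with 4 of 5 genes tested passing as higher at E16.5 and Ccdc153 at 0 in every adult sample and in 2 of 3 E16.5 samples. Dynlrb2, the 1 that did not pass (limma adjusted p = 0.0773), held 486 to 564 FPKM of the E16.5 sums. Tmem212, not tested, was at 0 in every E16.5 sample and above 0 only in adult replicate 2, at 2.63 FPKM. Endothelial markers summed to 0.489 to 19.0 FPKM in adult and 12.3 to 40.8 FPKM at E16.5, with 0 of 2 genes tested passing and 1, Kdr, below an unadjusted limma p of 0.05. Kdr alone held 12.3 to 36.7 FPKM of the E16.5 sums. Cldn5 and Pecam1 were above 0 only in adult replicate 2, and Tek and Plvap only at E16.5. Cell cycle markers summed to 4.83 to 45.8 FPKM in adult and 27.3 to 63.0 FPKM at E16.5. Of 4 tested, 1 passed as higher at E16.5, Top2a, at 0 in every adult sample. Red blood cell markers summed to 0 to 6.49 FPKM in adult and 54.1 to 324 FPKM at E16.5. Of 3 tested, 2 passed as higher at E16.5, Hba-a2 and Hbb-bs, at 0 in every adult sample. Macrophage markers summed to 0.0695 to 6.82 FPKM in adult and 0.436 to 8.48 FPKM at E16.5, with 0 of 3 tested passing. The part of cells with these markers in the Id values was not tested. Cilia genes do not separate ependyma from ChP, as both are ciliated epithelia. The part of the Id2 window in no GENCODE exon (GRCm38.p6, chr12:25096254-25096342, minus strand, 89 bases) is shown because Id2 is a target and holds GGCGCC, in capitals, with its first base 231 bases before the RefSeq start. The motif is in 2.73% of all windows of this length, whatever their base content, and this part is 67.4% G or C. The part shown also lies inside the span of its gene, so it can be intron of transcripts that start further upstream.
Id2: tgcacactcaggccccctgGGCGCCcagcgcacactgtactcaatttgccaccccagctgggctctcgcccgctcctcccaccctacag

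**Figure D3:**
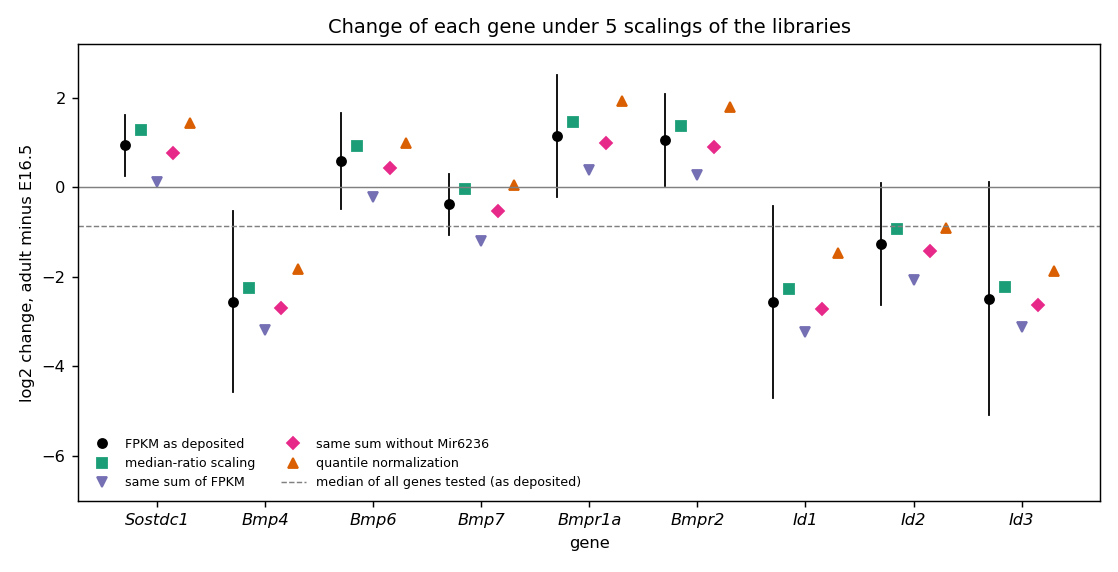
Log2 change (adult minus E16.5) of the 9 genes tested, with FPKM as deposited (black, with the limma 95% interval) and under 4 other scalings of the libraries, beside the median of all genes tested at -0.86 (dashed). Sostdc1, Bmpr1a and Bmpr2 lie above 0 under every scaling shown, Bmp4 and the 3 Id genes below 0, and Bmp6 and Bmp7 on both sides.

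A list of 85 other genes of the pathway or linked to it was set beside these. It includes Lrp4, Lrp5 and Lrp6, WNT coreceptors listed because Sostdc1 binds them. All 85 are in the table, 23 were listed at 0 in all 6 samples, and 47 were tested. Of the 47, 3 passed as higher in adult, the WNT coreceptor gene Lrp6 among them, and 3 as higher at E16.5. The median log2 change of the 47 was -0.42. The share of the 6 genes is 3 of 47 in each direction, against 2.12% and 8.83% of all genes. All adult values lay above all E16.5 values in 5 of the 47 and below them in 9, against 7.39% and 31.0% of all genes. None of the 6 passed without E16.5 replicate 1, 2 or 3 (limma adjusted p from 0.0657 to 0.125), and with a replicate left out on the adult side Lrp6 alone passed every time. Each also missed the threshold under some of the other scalings, pseudocounts or filters tried, with limma adjusted p = 0.0964 for Furin after rescaling to the same sum, 0.157 and 0.400 for Acvr2b and Pcsk6 after quantile normalization, and 0.0790 for Fstl1 at a pseudocount of 0.1.

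Among 10 other receptors and coreceptors tested, 2 rose and 1 fell. Lrp6, a WNT coreceptor that Sostdc1 binds, had 94.2, 81.3 and 103 FPKM among adults and 25.6, 35.8 and 27.4 FPKM at E16.5 (log2 change 1.63, standard error 0.31, limma adjusted p = 0.0221). Tgfbr3, the coreceptor betaglycan, had 76.1, 69.3 and 74.9 FPKM among adults and 31.3, 31.3 and 32.8 FPKM at E16.5 (log2 change 1.18, standard error 0.29, limma adjusted p = 0.0414). The ages did not overlap in either gene. After rescaling to the same sum neither gene passed (0.81 with limma adjusted p = 0.117 for Lrp6, 0.37 with limma adjusted p = 0.442 for Tgfbr3). Without adult replicate 1 Tgfbr3 had an adjusted p of 0.0763 by limma. Acvr2b, a type II receptor for activins and some BMPs, was listed at 0 in adult replicates 1 and 3 and had 1.35 FPKM in adult replicate 2, against 7.71, 6.03 and 11.9 FPKM at E16.5 (log2 change -2.80, standard error 0.68, limma adjusted p = 0.0416). It did not pass without adult replicate 1 or 3 (limma adjusted p = 0.0915 and 0.0501). Lrp5 had 29.3, 35.2 and 22.3 FPKM among adults and 19.5, 20.8 and 10.3 FPKM at E16.5, and Lrp4 had at most 0.216 FPKM among adults and 1.32 to 3.82 FPKM at E16.5. Neither passed (limma adjusted p = 0.261 and 0.117), although the ages did not overlap in either.

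Of 19 other secreted antagonists and modulators, 8 were listed at 0 in all samples, among them Grem1 and Fst, and 6 were tested. Fstl1, a follistatin-related secreted protein, had 0.0749, 2.08 and 12.9 FPKM across the adult replicates and 68.2, 66.0 and 46.4 FPKM across the E16.5 replicates, and passed as higher at E16.5 (log2 change -4.07, standard error 0.89, limma adjusted p = 0.0323, and 0.0541 without adult replicate 2). The part of the mesenchyme markers, given beside Bmp4, in this result was not tested. Nog, the antagonist noggin, was listed at 0 in all adult samples and in E16.5 replicate 1, with 8.45 and 0.434 FPKM in E16.5 replicates 2 and 3. Twsg1 (5.94 to 38.2 FPKM over all samples) and Tsku (3.88 to 28.6 FPKM) overlapped between the ages. Sostdc1 held 89.4%, 93.6% and 92.3% of the summed FPKM of all 20 antagonists in adult and 79.1%, 76.6% and 79.0% at E16.5 (91.8% ± 2.14 against 78.2% ± 1.41, SD, n = 3 each). The ages did not overlap. Fstl1 held 13.1% to 14.5% at E16.5 and at most 1.79% in adult.

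Of 6 enzymes tested that cut BMP precursors or, like Bmp1, other secreted proteins of the pathway, 1 passed in each direction. Furin, the proprotein convertase of the secretory pathway, had 39.9, 76.2 and 110 FPKM among adults and 19.4, 21.2 and 10.2 FPKM at E16.5 (log2 change 2.04, standard error 0.49, limma adjusted p = 0.0414). Pcsk6, a convertase of the same family, was listed at 0 in adult replicates 1 and 3 and had 0.194 FPKM in adult replicate 2, against 7.38, 4.45 and 2.52 FPKM at E16.5 (log2 change -2.36, standard error 0.61, limma adjusted p = 0.0477). Furin did not pass without adult replicate 2 or 3 (limma adjusted p = 0.0692 and 0.0506), and Pcsk6 did not pass without adult replicate 1, 2 or 3 (limma adjusted p = 0.108, 0.0567 and 0.0722). The other 4 enzymes tested did not pass, Bmp1 at 2.94 to 17.1 FPKM over all samples among them.

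None of 13 SMADs and intracellular regulators tested passed in limma, and 1, the ubiquitin ligase gene Smurf2, had an unadjusted p under 0.05. Smad5, a signal carrier of BMP receptors, had 23.9, 8.92 and 4.45 FPKM among adults and 14.7, 18.0 and 17.3 FPKM at E16.5. Smad4, the shared partner of the receptor SMADs, had 46.8, 21.8 and 27.5 FPKM in adult and 38.6, 40.97 and 37.3 FPKM at E16.5. Fkbp1a, whose product holds type I receptors inactive, had the highest mean of the group at both ages, with 62.6 to 89.8 FPKM in adult and 57.1 to 160 FPKM at E16.5. The repressors Ski (14.4 to 30.6 against 31.0 to 43.3 FPKM) and Skil (12.8 to 37.4 against 21.97 to 26.9 FPKM), the phosphatase gene Ppm1a (6.91 to 52.5 against 34.2 to 50.8 FPKM), Tob1 (19.9 to 75.6 against 43.2 to 66.9 FPKM) and Smurf1 (4.73 to 14.5 against 10.3 to 15.3 FPKM) overlapped between the ages except Ski. Smad1 had 0.674 to 8.15 FPKM among adults and 2.52 to 7.77 FPKM at E16.5, and Smad9 0.445 to 6.46 FPKM over all samples. The inhibitory SMADs, which are also targets of the pathway, had 0.118 to 3.62 FPKM (Smad6) and 0.154 to 6.08 FPKM (Smad7) in adult and 2.59 to 9.88 and 2.97 to 7.36 FPKM at E16.5, with overlapping ages.

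Msx1, a homeobox gene and BMP target of the dorsal midline, was the highest of 5 other targets tested, at 133, 174 and 94.6 FPKM among adults and 230, 181 and 157 FPKM at E16.5. Its ages overlapped through adult replicate 2, and it did not pass (log2 change -0.52, standard error 0.31, limma adjusted p = 0.286), nor did Msx2, Hes1, Id4 or Atoh8. Atoh8 was listed at 0 in adult replicates 1 and 3 and had 4.504 FPKM in adult replicate 2, against 9.30 to 12.8 FPKM at E16.5 (limma adjusted p = 0.0781). Of the E proteins that Id proteins bind, Tcf12 had 38.5, 47.8 and 43.3 FPKM among adults and 42.7, 47.1 and 42.9 FPKM at E16.5, with a log2 change of -0.04 (standard error 0.30). Tcf3 had 3.21, 4.795 and 0 FPKM among adults and 10.7 to 13.9 FPKM at E16.5, and Tcf4 had 1.84 to 8.43 FPKM among adults and 11.3 to 21.7 FPKM at E16.5. In both the adult samples lay below all E16.5 samples, as in 31.0% of all genes, and neither passed (limma adjusted p = 0.110 and 0.176). Of the ligands and receptors not yet given, Gdf11 had 3.32 to 19.0 FPKM and Neo1, a coreceptor, 1.38 to 20.5 FPKM over all samples, with overlapping ages.

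**Figure D4:**
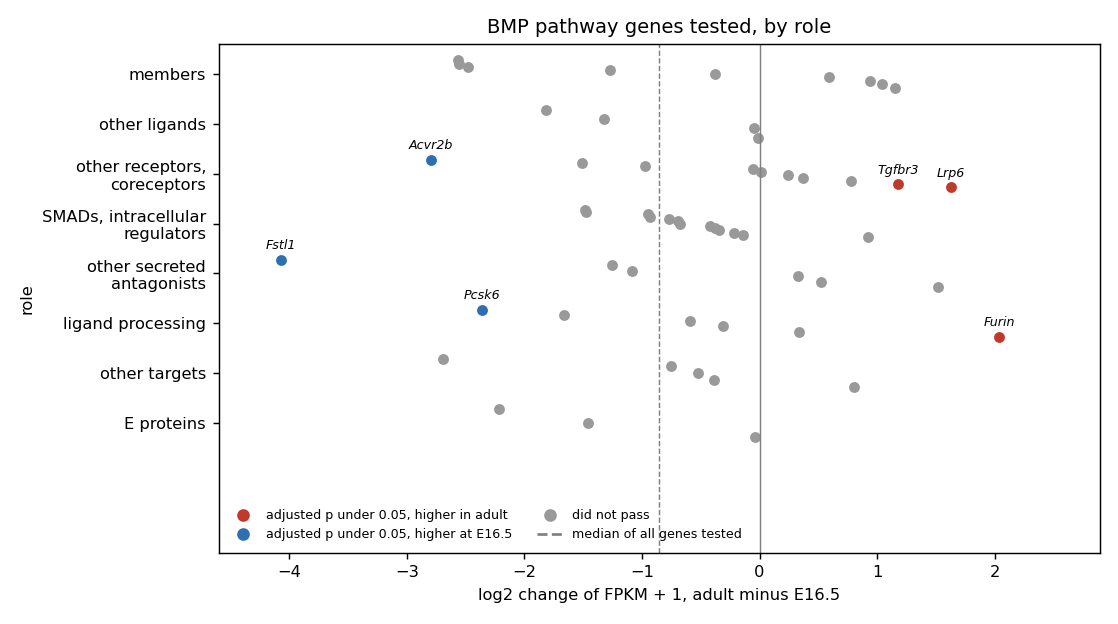
Log2 change of FPKM + 1 (adult minus E16.5) of the 56 listed genes tested, one point per gene, in rows by role. The WNT coreceptors Lrp4, Lrp5 and Lrp6 stand among the other receptors. Named points passed a limma adjusted p of 0.05, with Lrp6, Tgfbr3 and Furin higher in adult (red) and Fstl1, Acvr2b and Pcsk6 higher at E16.5 (blue), and the dashed line marks the median of all genes at -0.86.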

How the data were processed

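TRAP mRNA was sequenced from 3 adult and 3 E16.5 samples of ChP, grouped by age from their labels. Per the study's methods, the authors aligned reads of 50 bases to mm10 with STAR (version 2.4.0 in the submitters' processing notes) and made the deposited FPKM values with Cuffquant of Cufflinks. The annotation and any use of strand are not given in the sources used here, so that reads of Bmp4, Bmp6, Bmpr1a and Bmpr2 cannot be told apart from those of overlapping genes. The authors' DESeq2 counts were not analysed here.

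The deposited FPKM were not rescaled. For genes whose mean exceeded 1, log2(FPKM + 1) was fitted by limma 3.58.1 (R 4.3.3) against age alone, the prior variance following the mean level, and Benjamini-Hochberg adjustment ran over all 11601 such genes. The fit was tested on simulated data. Single genes were also compared by two-sided exact permutation tests. The fold change of log2(FPKM + 1) understates that of low genes. Reads were derived from an effective length of the longest GENCODE M21 transcript less 200 bases, at a step that rested on 35 to 63 low values per library, of which 65.1% to 82.1% lay within 0.1 of a whole read. The step was chosen to bring these values closest to whole reads, so that share is no test of it. Read numbers are approximate, and reads are not independent molecules. Promoter windows came from RefSeq (GRCm38.p6), with entries for 7 of the 10 genes. Each was searched from its upstream end to the first GENCODE exon, which left no base of the Bmpr2, Id3 and Bmp6 windows.

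The members and lists were chosen with earlier results of these data known. Genes named are the 10 members, pathway genes that passed, that exceeded a mean of 10 FPKM or that enter a share, the 5 genes most like Sostdc1, and markers that are most abundant or listed at 0. Of the cell cycle, red blood cell and macrophage markers, only those that passed are named. Grem1, Fst, Lrp4, Nog, Atoh8, Tcf3, Smad1, Smad6, Smad7, Smad9, Msx2, Folr1, Otx2, Aqp1, Col1a2, Pdgfrb, Sox2 and Tubb3 were named after their values were seen.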

Additional observations from a re-analysis of the deposited data

How the results depend on the processing

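Sostdc1, Bmp4, Bmpr1a, Bmpr2, Id1, Id2 and Id3 kept their direction under the 4 other scalings, the 2 other pseudocounts and with each sample left out. The other alternatives, such as the filter or the block, leave a log2 change as it is. The filter does move the median of all genes, and with it a change relative to that median. Bmp6 became negative (-0.22) when all libraries were given the same sum of FPKM, and Bmp7 positive (0.059) under quantile normalization. The number of the 9 genes that passed was 0, and became 1 after median-ratio scaling and 1 after quantile normalization (Sostdc1 in both), 4 after rescaling to the same sum (Bmp4, Bmp7, Id1 and Id2) and 0 to 1 with each sample left out (Id2 without adult replicate 3). Of the other pathway genes 6 passed, against 2 at a pseudocount of 0.01, 3 with no filter on low values, 3 in limma without a trend (all higher at E16.5), 9 after rescaling to the same sum (all higher at E16.5), 0 at an adjusted p of 0.01 and 0 to 4 with each sample left out. Over all genes 1270 passed, against 722 among genes above 0 in every sample, 3319 after rescaling to the same sum, 188 at an adjusted p of 0.01 and 43 (without E16.5 replicate 2) to 1923 (without adult replicate 2) with each sample left out, with 57 and 112 without E16.5 replicates 1 and 3, 687 without adult replicate 1 and 1721 without adult replicate 3. The share of these higher in adult, 19.4%, was 34.7% after median-ratio scaling, 3.59% after rescaling to the same sum, 53.0% after quantile normalization and 37.5% among genes above 0 in every sample. The difference in the Id2 share of the Id sum, 4.88 percentage points, ranged from -10.8 (without adult replicate 3) to 20.8 (without adult replicate 2). Replicate numbers 1 to 3 recur in both ages, but same-numbered samples did not deviate together (r = 0.00089, 0.044 and 0.015 across genes). With a replicate block 564 genes passed over all genes, 0 of the 9 and 1 of the other pathway genes. Not every sample correlated best with its own number. Where a count or a direction moved, the cause was not tested. Single values of Bmp4, Bmpr1b, Id1 and Id3 rest on few reads or are listed at 0, in adult samples and, for Bmpr1b, at E16.5 too.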
